A study of Mus musculus with 9 samples.

Results

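Forkhead factors of skeleton and mesenchyme were followed across 3 cell populations sorted from developing mouse knees. The 10 genes were chosen by name, as the members of the Foxa, Foxc, Foxf and Foxp families listed for this purpose, a list without Foxp3. They were Foxa1, Foxa2, Foxa3, Foxc1, Foxc2, Foxf1, Foxf2, Foxp1, Foxp2 and Foxp4, out of 44 forkhead genes and 54532 genes in the table. Their rows were found through the Ensembl identifiers, which GENCODE M21 pairs with the symbols.

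The cells came from knees of embryos at E14.5, when the synovial joint is forming between the cartilages of femur and tibia. All embryos were heterozygous for both reporter alleles, Creb5 3XHA-P2A-tdTomato/+ and Sox9 iresEGFP/+, so every population carries both. Double-positive cells had red and green fluorescence, RFP-only cells had tdTomato alone, which reports Creb5, a bZIP factor of the joint-forming cells, and GFP-only cells had EGFP alone, which reports Sox9, the master regulator of cartilage. Each population had 3 libraries of polyadenylated RNA, 1 from each of the litters numbered 1, 2 and 5, and each library was made from a bulk pool of sorted cells. The deposited values are named as leaving out other litters, and no source used here gives the reason. The sort is by a reporter's brightness, so a population can hold several cell types, and in bulk RNA fewer cells of a type and less RNA per cell cannot be told apart.

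Forkhead factors bind DNA through a winged helix domain, whose recognition helix lies in the major groove. Foxa proteins are pioneer factors, able to bind compacted chromatin, and in mouse growth plates Foxa2 and Foxa3 promote the step from proliferating to hypertrophic chondrocyte. Foxc1 and Foxc2 act in the mesoderm that gives rise to skull, vertebrae and vessels, and in mouse cartilage they take part with Sox9 and the hedgehog effector Gli2 in endochondral growth. Foxf1 and Foxf2 serve the mesenchyme of gut, lung and palate as targets of hedgehog signaling. Foxp1, Foxp2 and Foxp4 are mainly repressors that pair with each other through a leucine zipper, and in mouse long bones they restrain hypertrophy and bone formation.

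The stretch of coding sequence that specifies the recognition helix is printed here for 6 of the genes, with at least 1 of each family, because this helix is the surface that reads DNA. Each line holds 36 bases of a GENCODE M21 transcript on GRCm38, 5′ to 3′ on the coding strand. Capitals mark bases that differ from Foxa3, whose stretch lies at chr7:19014678-19014713 on the minus strand, in exon 2 of 2.
Foxa3: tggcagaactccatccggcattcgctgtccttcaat
Foxc1: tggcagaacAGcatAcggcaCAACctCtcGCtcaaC
Foxc2: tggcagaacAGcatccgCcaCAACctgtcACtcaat
Foxf1: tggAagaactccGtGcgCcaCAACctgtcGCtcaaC
Foxf2: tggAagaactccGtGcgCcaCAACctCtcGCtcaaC
Foxp4: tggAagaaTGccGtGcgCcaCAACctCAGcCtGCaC
The stretches of Foxf1 and Foxf2 differed at 1 base and those of Foxc1 and Foxc2 at 5. From Foxa3, Foxc2 differed at 9 of the 36 bases, Foxc1 and Foxf1 at 11, Foxf2 at 12 and Foxp4 at 17. The stretch of Foxp4 was split over 2 exons by an intron, and in the other 5 genes it lay within 1 exon. How reads that match several members were assigned is not given in any source used here.

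Values are normalized counts, reads divided by a size factor for each library, and recovered totals ran from 25199258 to 47079305 reads per library. Each gene was tested with limma on log2(normalized count + 1), which understates the change of low genes, and a gene is said to have passed when its Benjamini-Hochberg adjusted p over 17764 tested genes was under 0.05. All 10 members had the mean of at least 10 normalized counts needed for testing. The genes under the reporters followed the labels. Creb5 averaged 3044 ± 333 normalized counts in Double-positive, 2959.8 ± 832 in RFP-only and 203 ± 68.1 in GFP-only cells, and Sox9 averaged 23474 ± 6622, 1618 ± 457 and 28910.0 ± 8025 in that order (SD, n = 3 each).

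Across the 3 populations, 5 of the 10 genes varied: Foxa2, Foxa3, Foxc1, Foxc2 and Foxp1 passed limma's F-test, with adjusted p between 3.64e-05 for Foxa3 and 0.000760 for Foxa2. Of all tested genes 17.2% passed the same test. The other members were Foxp2 with an adjusted p of 0.0651, Foxf1 with 0.175, Foxp4 with 0.292, Foxf2 with 0.427 and Foxa1 with 0.841. Among those that passed, Foxa2 and Foxa3 were highest in GFP-only cells, Foxc1 and Foxc2 were lowest in RFP-only cells, and Foxp1 was highest in Double-positive cells.

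**Figure D1:**
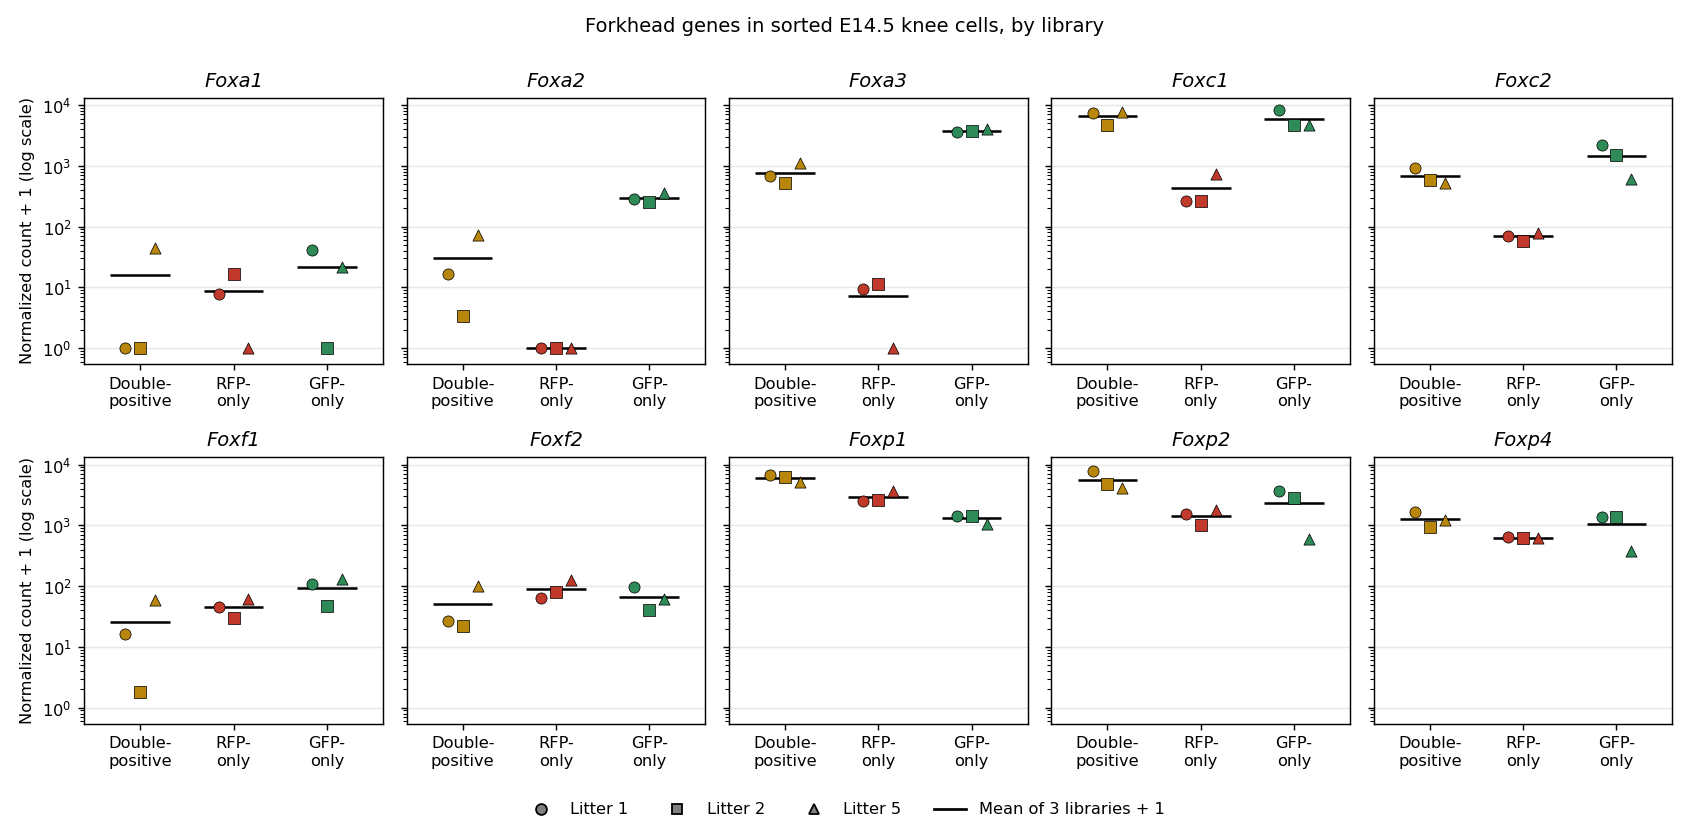
Normalized count + 1 (log scale) of each of the 10 forkhead genes in every library, by population, with the marker giving the litter and the bar the mean of 3 libraries. Foxa3 lies between 518 and 1111 in Double-positive, at 10.2 or below in RFP-only and at 3562 or above in GFP-only libraries, while the Foxp1 groups stand apart from each other with Double-positive cells highest.

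Foxa3 (ENSMUSG00000040891, chr7:19013284-19023538 on GRCm38) was the highest of the 10 per kb of exon in GFP-only cells. Its normalized counts were 672, 518 and 1111 in the Double-positive libraries of litters 1, 2 and 5, then 8.38, 10.2 and 0 in RFP-only cells, and 3562, 3730.3 and 4057 in GFP-only cells. No population overlapped another. The RFP-only libraries together held 20 reads of Foxa3, against 2849 reads in Double-positive and 10346 in GFP-only libraries. In RFP-only against GFP-only cells Foxa3 fell by 9.65 ± 0.75 on the log2 scale (SE, adjusted p = 1.41e-05 by limma), and it was 7.27 ± 0.75 higher in Double-positive than RFP-only cells (adjusted p = 0.000498).

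Foxa3 averaged 767 ± 308 normalized counts in Double-positive and 3783 ± 252 in GFP-only cells (SD, n = 3 each), a 4.93-fold lower mean with a log2 fold change of -2.37 ± 0.75 (95% interval -4.02 to -0.73) that did not pass (limma adjusted p = 0.0758). This call depended on the setting. Over all alternatives the adjusted p ranged from 1.60e-08 to 0.223, with the same direction throughout. It passed with the RFP-only libraries out of the fit (0.00732), with a pseudocount of 5 (0.00697), with edgeR (0.0124) and DESeq2 (1.60e-08) on recovered reads, without the litter 5 RFP-only library (0.00380) and without all litter 5 libraries (0.00375).

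The promoter of Foxa3 is shown because no other forkhead gene was as high per kb of exon in GFP-only cells. It is RefSeq's window of 250 bases before to 50 after the start, GRCm38.p6, chr7:19023490-19023789 on the minus strand, and capitals mark a TATAAA match 36 bases before the start.
Foxa3: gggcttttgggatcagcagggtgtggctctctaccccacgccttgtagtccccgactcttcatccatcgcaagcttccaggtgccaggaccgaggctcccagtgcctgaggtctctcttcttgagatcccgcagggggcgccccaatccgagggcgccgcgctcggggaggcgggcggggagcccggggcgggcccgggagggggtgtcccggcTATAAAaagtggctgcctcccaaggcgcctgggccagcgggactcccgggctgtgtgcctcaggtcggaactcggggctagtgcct
RefSeq windows were at hand for 7 members, 11 windows in all, and Foxc2, Foxf1 and Foxp2 had none. TATAAA on either strand stood in 13.6% of 32851 windows of this length and in 1 window each of Foxa2 and Foxa3. The forkhead motif TGTTTAC stood in 3.65% of windows and in 1 of the 11, that of Foxa1, and the CREB motif TGACGTCA stood in 1.79% and in 0 of the 11.

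Foxa2 (ENSMUSG00000037025, chr2:148042877-148046969), the partner of Foxa3 in hypertrophy, had the same order of populations. Its normalized counts were 15.4, 2.34 and 71.8 in Double-positive, 0, 0 and 0 in RFP-only, and 281, 249.8 and 353 in GFP-only libraries. Again no population overlapped another, and the Double-positive libraries spread over a 30.7-fold range. Reads of Foxa2 were pooled over each population and set against a floor of 3 reads in RFP-only cells. On this floor Foxa2 was 282-fold lower in RFP-only than GFP-only cells (limma adjusted p = 0.000236). It was 30.5-fold higher in Double-positive than RFP-only cells, a difference that did not pass (adjusted p = 0.0563). These folds leave out the spread between libraries, and litter 5 gave 96 of the 115 Double-positive reads. The 95% intervals on the log2 scale were -10.34 to -6.04 and 1.83 to 6.14 in that order.

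That Foxa2 difference between Double-positive and RFP-only cells ranged in adjusted p from 7.69e-05 to 0.262 over the alternatives. It passed with DESeq2 (7.69e-05), with a pseudocount of 0.5 (0.0382) and without the litter 2 Double-positive library (0.00999). Against GFP-only cells, Foxa2 fell in Double-positive cells by 4.21 ± 0.98 on the log2 scale (adjusted p = 0.0242), with means of 29.8 ± 36.9 and 295 ± 52.8 normalized counts. The adjusted p of this call ranged from 0.00469 to 0.0849. The call was lost with edgeR (0.0849), without Double-positive libraries of litter 1 (0.0684) or 2 (0.0678), and without GFP-only libraries of litter 1 (0.0564), 2 (0.0519) or 5 (0.0624).

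The ratio of the pair is given as a description, with no test. Per kb of exon, Foxa3 exceeded Foxa2 by 50.8, 258 and 18.0 times in the Double-positive libraries of litters 1, 2 and 5, and by 14.7, 17.4 and 13.4 times in the GFP-only libraries. The lowest Double-positive ratio was close to the highest GFP-only ratio, the highest rests on 3 reads of Foxa2, and RFP-only libraries gave no ratio because Foxa2 had no reads there. Foxa1 (ENSMUSG00000035451, chr12:57540628-57546916), the remaining member of the family, was low and uneven between libraries. It had normalized counts of 0, 0 and 44.1 in Double-positive, 6.86, 15.9 and 0 in RFP-only, and 40.5, 0 and 20.4 in GFP-only libraries. Each population had at least 1 library without a read of Foxa1, the populations overlapped and no comparison of it passed.

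Foxc1 (ENSMUSG00000050295, chr13:31806633-31812476) was high in both populations with the Sox9 reporter on. Its normalized counts were 7286, 4767 and 7767 in Double-positive, 261, 266 and 741 in RFP-only, and 8349, 4761 and 4613 in GFP-only libraries. Double-positive and GFP-only libraries overlapped, and every RFP-only library lay below them. Foxc1 was 4.11 ± 0.40 higher on the log2 scale in Double-positive than RFP-only cells (limma adjusted p = 0.000338) and fell by 3.93 ± 0.40 in RFP-only relative to GFP-only cells (adjusted p = 9.13e-05). Double-positive differed from GFP-only cells by a log2 value of 0.19 ± 0.40 with a 95% interval of -0.70 to 1.07 (adjusted p = 0.808), and its sign turned to -0.10 without all litter 5 libraries.

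The window at the Foxc1 start is shown because Foxc1 was the highest forkhead gene per kb of exon in Double-positive cells. It lies at chr13:31806396-31806695 on the plus strand of GRCm38.p6, from RefSeq. None of the 4 motifs searched was among its letters, so it carries no capitals.
Foxc1: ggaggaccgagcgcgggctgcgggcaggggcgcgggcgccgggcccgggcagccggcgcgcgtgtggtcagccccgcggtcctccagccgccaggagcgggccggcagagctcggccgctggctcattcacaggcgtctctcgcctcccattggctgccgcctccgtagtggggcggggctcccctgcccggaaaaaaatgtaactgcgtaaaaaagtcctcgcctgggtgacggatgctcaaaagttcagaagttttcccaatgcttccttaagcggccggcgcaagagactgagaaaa

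Foxc2 (ENSMUSG00000046714, chr8:121116171-121118895), the other gene of the pair, had 904, 585 and 529 normalized counts in Double-positive, 68.6, 56.6 and 78.4 in RFP-only, and 2173, 1532 and 594 in GFP-only libraries. The RFP-only libraries were lowest again, and the litter 5 GFP-only library stood within the Double-positive range. Foxc2 was 3.26 ± 0.44 higher on the log2 scale in Double-positive than RFP-only cells (limma adjusted p = 0.00253) and fell by 4.20 ± 0.44 in RFP-only relative to GFP-only cells (adjusted p = 0.000105). Against GFP-only cells the Double-positive level of Foxc2 differed by -0.94 ± 0.44, with a 95% interval of -1.91 to 0.03 (adjusted p = 0.215). Over the alternatives this adjusted p ran from 0.0181 to 0.445, and it passed as lower without the GFP-only library of litter 5 (-1.48, adjusted p = 0.0181) and without all litter 5 libraries (-1.33, adjusted p = 0.0459).

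Within libraries, Foxc1 exceeded Foxc2 per kb of exon by 3.76, 3.80 and 6.84 times in Double-positive, 1.78, 2.19 and 4.40 times in RFP-only and 1.79, 1.45 and 3.62 times in GFP-only cells. In each of the 3 populations the library of litter 5 had the highest ratio. Within each litter, the Double-positive ratio was above that of the other populations. The log2 profiles of the pair over 9 libraries, each centred on its own mean, differed by a root mean square of 0.703, the second smallest among the 45 pairs of members after Foxp2 and Foxp4 (0.567).

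Foxp1 (ENSMUSG00000030067, chr6:98925338-99522721) was highest in Double-positive and lowest in GFP-only cells. Its normalized counts were 6626, 6229.9 and 5169 in Double-positive, 2509.9, 2585 and 3688 in RFP-only, and 1409, 1434 and 1052 in GFP-only libraries. No population overlapped another, and the coefficient of variation over litters was 12.5% in Double-positive, 22.5% in RFP-only and 16.5% in GFP-only cells. Foxp1 rose by 2.22 ± 0.23 on the log2 scale in Double-positive against GFP-only cells (limma adjusted p = 0.000386), a ratio of means of 4.63, and by 1.16 ± 0.23 in RFP-only relative to GFP-only cells (adjusted p = 0.00457). Both calls held in all 20 alternatives. It was also 1.05 ± 0.23 higher in Double-positive than RFP-only cells (adjusted p = 0.0341), with an adjusted p between 0.000913 and 0.155 over the alternatives. With litter as a block this last difference did not pass (adjusted p = 0.0599), nor did it without Double-positive libraries of litter 1 (0.152), 2 (0.0887) or 5 (0.0711) or RFP-only libraries of litter 1 (0.143) or 2 (0.155).

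RefSeq gave 3 start windows for Foxp1. The window with a SOX motif is shown because Sox9 marks the sort: chr6:99028249-99028548 on the minus strand of GRCm38.p6, where capitals mark CCATTGT, the reverse complement of ACAATGG, 86 bases before the start.
Foxp1: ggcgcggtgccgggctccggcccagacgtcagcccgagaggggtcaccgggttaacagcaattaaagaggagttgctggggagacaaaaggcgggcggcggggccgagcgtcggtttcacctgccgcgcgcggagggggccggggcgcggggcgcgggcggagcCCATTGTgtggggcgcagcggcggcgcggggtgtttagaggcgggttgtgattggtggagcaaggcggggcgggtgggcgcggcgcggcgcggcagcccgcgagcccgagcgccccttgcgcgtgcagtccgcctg
The motif stood in 3.66% of all windows on either strand and in 1 of the 11 member windows.

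Foxp2 (ENSMUSG00000029563, chr6:14901349-15441977) had 7817, 4792 and 4153 normalized counts in Double-positive, 1524, 1012 and 1786 in RFP-only, and 3661, 2793 and 586 in GFP-only libraries. Every Double-positive library lay above every library of the other populations, while RFP-only and GFP-only libraries overlapped through the low GFP-only library of litter 5. None of its 3 differences passed. Its log2 fold changes were 1.57 ± 0.57 for Double-positive against GFP-only (limma adjusted p = 0.115), -0.37 ± 0.57 for RFP-only against GFP-only (0.674) and 1.94 ± 0.57 for Double-positive against RFP-only (0.109). The last passed with DESeq2 (0.00479), with quantile normalization (0.0441), with GFP-only libraries out of the fit (0.00965), without the GFP-only library of litter 5 (0.00382) and without all litter 5 libraries (0.0121), over a range of 0.00382 to 0.373.

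For Foxp2 in RFP-only against GFP-only cells, leaving out the litter 5 GFP-only library gave -1.19 (adjusted p = 0.0213), leaving out all litter 5 libraries gave -1.36 (0.0199), and leaving out the litter 1 GFP-only library turned the sign to 0.13, within a range of adjusted p of 0.0199 to 0.951. For Double-positive against GFP-only, leaving out that library of litter 1 gave 2.07 (0.0470), within a range of 0.0470 to 0.295.

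Foxp4 (ENSMUSG00000023991, chr17:47867133-47924645), the last Foxp gene of the list, had 1675, 949 and 1233 normalized counts in Double-positive, 651, 616 and 620.2 in RFP-only, and 1371, 1379 and 374 in GFP-only libraries. RFP-only libraries lay close together below all Double-positive ones, and GFP-only libraries reached both higher and lower than RFP-only. Its log2 fold changes were 0.49 ± 0.45 for Double-positive against GFP-only (limma adjusted p = 0.528), -0.50 ± 0.45 for RFP-only against GFP-only (0.452) and 0.99 ± 0.45 for Double-positive against RFP-only (0.364).

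As with Foxp2, the litter 5 GFP-only library decided calls of Foxp4. Without it Foxp4 was lower in RFP-only than GFP-only cells (-1.13, adjusted p = 0.00812, over a range of 0.00812 to 0.801), higher in Double-positive than RFP-only cells (0.99, adjusted p = 0.0241, over a range of 0.0241 to 0.791), and its difference between Double-positive and GFP-only cells turned to -0.14. Without all litter 5 libraries RFP-only cells were again lower than GFP-only cells (-1.12, adjusted p = 0.0337), and with GFP-only libraries out of the fit Double-positive cells were higher than RFP-only cells (adjusted p = 0.0427).

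Ratios within the Foxp family were not tested, and only some populations overlapped. For Foxp1 over Foxp2 every Double-positive library lay below every RFP-only library, and GFP-only libraries overlapped both. For Foxp1 over Foxp4 every GFP-only library lay below those of the other populations, which overlapped each other. Per kb of exon, Foxp1 over Foxp2 was 1.01, 1.55 and 1.48 in Double-positive, 1.96, 3.04 and 2.45 in RFP-only, and 0.458, 0.610 and 2.13 in GFP-only libraries. Foxp1 over Foxp4 was 1.42, 2.35 and 1.50 in Double-positive, 1.38, 1.50 and 2.13 in RFP-only, and 0.368, 0.373 and 1.01 in GFP-only libraries. Foxp1 was the lower of each pair per kb in GFP-only cells of litters 1 and 2 and the higher in Double-positive and RFP-only cells. Against Foxp4 that order rests on the exon length, since in normalized counts Foxp1 was the higher there too, at 1409 and 1434 beside 1371 and 1379 for Foxp4. Against Foxp2 the order in Double-positive cells of litter 1 also rests on the exon length. In that library Foxp1 had 6626 normalized counts and Foxp2 7817. The litter 5 GFP-only ratio of Foxp1 over Foxp2 lay within the RFP-only range.

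Foxf1 and Foxf2 were low in all 3 populations, between rank 16 and rank 24 of the 44 forkhead genes per kb of exon. Foxf1 (ENSMUSG00000042812, chr8:121084386-121088144) had 15.4, 0.780 and 59.1 normalized counts in Double-positive, 44.9, 28.3 and 60.2 in RFP-only, and 107, 45.3 and 128 in GFP-only libraries. Foxf2 (ENSMUSG00000038402, chr13:31625816-31631403) had 25.9, 21.05 and 100.2 in Double-positive, 63.2, 79.3 and 126 in RFP-only, and 97.5, 39.2 and 61.1 in GFP-only libraries. The populations overlapped for both genes, and none of their 6 differences passed. Nearest to passing was Foxf1 in Double-positive against GFP-only cells at -2.84 ± 1.06 (limma adjusted p = 0.123, range 0.0369 to 0.305), which passed as lower without the litter 5 Double-positive library (-4.00, adjusted p = 0.0369).

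Counted together, 2 of 10 members passed in Double-positive against GFP-only cells, with Foxp1 higher and Foxa2 lower, where 8.29% of all tested genes passed (5.27% higher and 3.02% lower). In RFP-only against GFP-only cells 5 passed, with Foxp1 higher and Foxa2, Foxa3, Foxc1 and Foxc2 lower, where 20.3% of all genes passed (11.8% higher and 8.48% lower). In Double-positive against RFP-only cells 4 passed, all higher (Foxa3, Foxc1, Foxc2 and Foxp1), where 2.85% of all genes passed (1.8% higher and 1.05% lower). No member was lower there by limma, also at an unadjusted p under 0.05, or by edgeR or DESeq2, which gave 0 each. The 3 comparisons share their libraries in pairs, so their counts are not independent.

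Groups did not overlap for 4 members in Double-positive against GFP-only cells, 2 higher and 2 lower, beside 28.1% of all genes (14.3% higher and 13.8% lower). They did not overlap for 5 members in RFP-only against GFP-only cells, 1 higher and 4 lower, beside 39.4% (20.9% and 18.5%). The count was 7 in Double-positive against RFP-only cells, all higher, beside 23.8% (11.2% and 12.6%). The members' median log2 fold changes in these comparisons, in the order given, were -0.81, -0.95 and 1.50, also with Foxa2 set at its folds against the floor. The medians over all tested genes were 0.04, 0.05 and -0.01. Without all litter 5 libraries, 4, 7 and 5 members passed in the same order of comparisons.

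**Figure D2:**
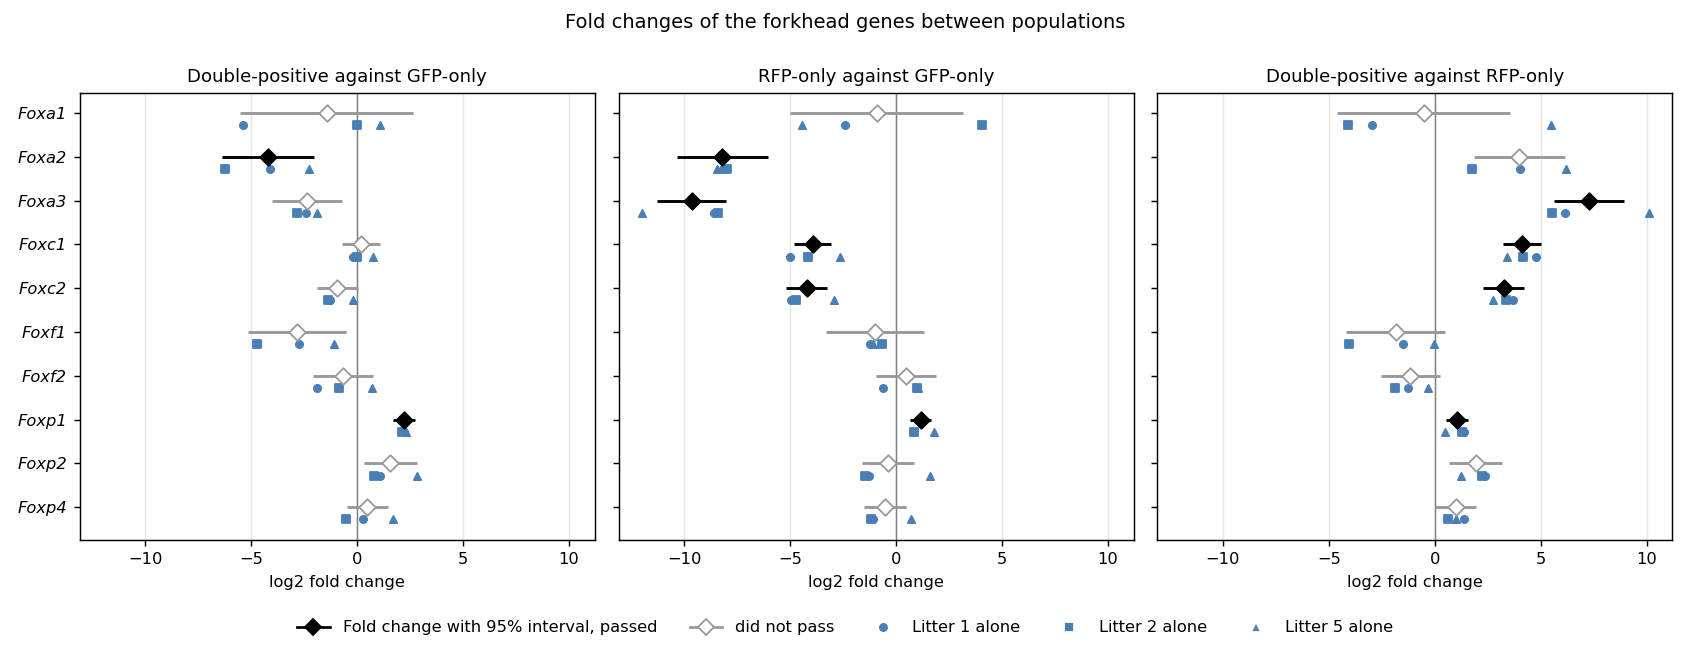
Log2 fold change (x axis) of each forkhead gene in the 3 comparisons, as diamonds with 95% intervals (black where the gene passed), with the difference within each litter beneath. For Foxp1 the diamonds stand at 2.22, 1.16 and 1.05 and all litters lie on the same side of 0, while for Foxp2 and Foxp4 in RFP-only against GFP-only cells litter 5 lies on the opposite side from litters 1 and 2.

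Set against all 44 forkhead genes of the table, levels were compared per kb of the union of annotated exons, a length that is large for Foxp1 and Foxp2 with their many transcripts. In Double-positive cells Foxc1 ranked first at 1130.5 ± 276 normalized counts per kb (SD, n = 3), 22.6% of the forkhead sum, followed by Foxp1 at 437 ± 54.8 (8.72%) and Foxa3 at 376 ± 151 (7.51%). The libraries of Foxp1 and Foxa3, neighbours in rank, overlapped. In RFP-only cells Foxp1 was the highest member, in rank 4 at 213 ± 47.9 (7.43%), and Foxc1 stood in rank 13 at 72.3 ± 47.1 (2.53%). In GFP-only cells Foxa3 ranked first at 1857 ± 124 (31.3%), before Foxc1 at 1011 ± 362 (17.1%) and Foxc2 at 526 ± 291 (8.87%), and Foxp1 stood in rank 14 (1.59%). The libraries of Foxc1 and Foxc2 overlapped there.

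**Figure D3:**
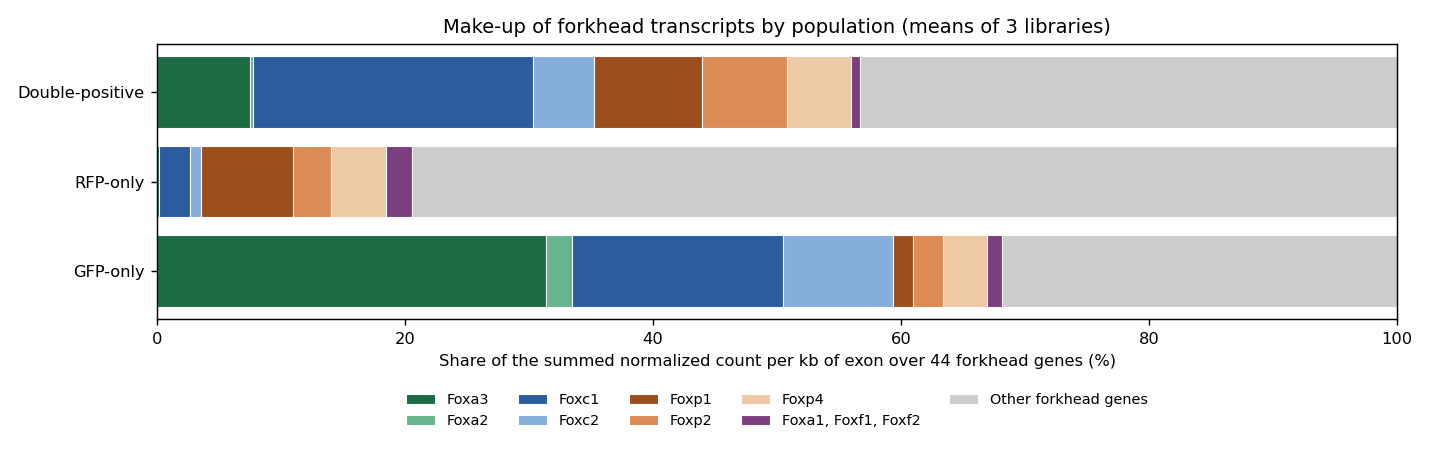
Share (%, x axis) of the summed normalized count per kb over 44 forkhead genes, by population, as means of 3 libraries. Foxa3 takes 7.51% in Double-positive and 31.3% in GFP-only cells, and genes outside the 10 members take most of the bar in RFP-only cells.

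Of 34 other forkhead genes that the table lists, 18 were tested. In Double-positive against GFP-only cells, where 8.29% of all tested genes passed, 1 of the 18 rose and the other 17 did not pass. Foxd2 averaged 648 ± 179 normalized counts in Double-positive and 191 ± 113 in GFP-only cells (log2 fold change 1.88 ± 0.44, limma adjusted p = 0.0236). This call, with an adjusted p of 0.00178 to 0.0937 over the alternatives, was lost without all litter 5 libraries (0.0610), with RFP-only libraries out of the fit (0.0584), without Double-positive libraries of litter 1 (0.0937) or 2 (0.0809) and without GFP-only libraries of litter 1 (0.0521).

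In RFP-only against GFP-only cells 2 of these 18 rose and 2 fell, where 20.3% of all tested genes passed. Foxd3, a neural crest factor retained by Schwann cell precursors, averaged 90.7 ± 30.8 normalized counts in RFP-only and 1.41 ± 0.220 in GFP-only cells (limma adjusted p = 0.00538), and Foxn3, a repressor, averaged 5346 ± 303 in RFP-only and 2925 ± 493 in GFP-only cells (adjusted p = 0.0105). Foxo1, a factor of insulin and stress responses, averaged 1473 ± 76.5 in RFP-only and 2958 ± 809.7 in GFP-only cells (adjusted p = 0.0185), and Foxo4 of the same family 63.7 ± 14.3 in RFP-only and 161 ± 51.4 in GFP-only cells (adjusted p = 0.0497). Foxn3 was lost without the litter 1 RFP-only library (0.0515, with a lowest value over the alternatives of 0.000474). Foxo1 was lost without RFP-only libraries of litter 1 (0.0538), 2 (0.0634) or 5 (0.0625) or the litter 1 GFP-only library (0.0569), with a lowest value of 0.00141. Foxo4 was lost in 16 of 20 alternatives, which ranged from 0.0124 to 0.174 and included each single library left out. In Double-positive against RFP-only cells 0 of the 18 passed by limma, with 2 higher and 2 lower at an unadjusted p under 0.05, 0 by edgeR, and 2 higher and 1 lower by DESeq2.

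Hedgehog genes bear on these families because Ihh, the ligand made by prehypertrophic chondrocytes, signals in the same cartilage. Ihh averaged 277 ± 243 normalized counts in Double-positive, 27.2 ± 16.0 in RFP-only and 13821 ± 2492 in GFP-only cells. It fell in Double-positive (limma adjusted p = 0.000200) and in RFP-only cells (4.96e-06) against GFP-only cells. Gas1, a co-receptor, was lowest in GFP-only cells, at 34108 ± 8718 in Double-positive, 32221 ± 1751 in RFP-only and 2124 ± 587 in GFP-only cells (adjusted p = 6.91e-05 for Double-positive and 6.36e-06 for RFP-only against GFP-only). Ptch1 was highest in GFP-only cells, at 1970 ± 502, 742 ± 198 and 4131 ± 1326 in the same order. It fell in RFP-only (limma adjusted p = 0.000383) but did not pass in Double-positive against GFP-only cells (0.0657). Its higher level in Double-positive than RFP-only cells (0.0393) was lost in 8 of 20 alternatives. Of 14 hedgehog genes tested, 4 rose and 1 fell in Double-positive against GFP-only, 2 rose and 2 fell in RFP-only against GFP-only, and 2 were higher in Double-positive against RFP-only cells, while the others did not pass. Of all tested genes 8.29%, 20.3% and 2.85% passed in these comparisons, in the same order. The hedgehog counts of 5, 4 and 2 changed with single libraries left out. The 5 became 3 on leaving out Double-positive litter 1 or 2, and the 4 became 7 on leaving out GFP-only litter 1. The 2 became 0 on leaving out RFP-only litter 5, 1 on leaving out RFP-only litter 1 or 2 or Double-positive litter 1 or 5, and 4 on leaving out GFP-only litter 5.

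Of 18 genes of chondrocyte hypertrophy, 13 fell in Double-positive against GFP-only cells (median log2 fold change -3.11) and 15 fell in RFP-only against GFP-only cells (median -4.06). In Double-positive against RFP-only cells 4 were higher (median 1.61), and 2 on leaving out RFP-only litter 1 or 5. The remaining genes of the list did not pass. Over all tested genes the shares that passed were 8.29%, 20.3% and 2.85% in these comparisons, in the same order. The early cartilage list of 20 genes includes Sox9, whose reporter defined the sort. Of these 20, 12 fell in Double-positive and 20 in RFP-only cells against GFP-only cells. All 20 were higher in Double-positive than RFP-only cells. The count of 12 became 3 on leaving out Double-positive litter 1 or 2, and 7 on leaving out RFP-only litter 5 or GFP-only litter 2 or 5. Their summed level ran from 480914 to 1259070 normalized counts in Double-positive, 13786 to 23924 in RFP-only and 2050560 to 2723960 in GFP-only libraries, with no gene at 0 in any population. Whether the share of cartilage cells in each sort accounts for a forkhead difference was not tested.

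Of 18 joint interzone genes, 11 rose and 1 fell in Double-positive against GFP-only cells, where 8.29% of all tested genes passed. The list includes Creb5, whose reporter defined the sort, and Erg, which is also in the endothelial list. Osr2, a factor of joint mesenchyme, averaged 7398 ± 2059 in Double-positive, 5771 ± 292 in RFP-only and 358 ± 158 normalized counts in GFP-only cells. Gdf5 and Barx1 of the same list had another order, with the lowest mean in RFP-only cells. Gdf5 averaged 10037 ± 6006 in Double-positive, 456 ± 286 in RFP-only and 1058 ± 301 in GFP-only cells. Barx1 averaged 3411 ± 1263, 118 ± 40.8 and 304 ± 56.2 in that order. In RFP-only against GFP-only cells, where 20.3% of all tested genes passed, 11 of the interzone genes rose and 3 fell. Barx1 was among the 3 (limma adjusted p = 0.0166), whereas the lower mean of Gdf5 missed the threshold (0.0958). In Double-positive against RFP-only cells, where 2.85% passed, 4 of the 18 interzone genes were higher, among them Barx1 and Gdf5. The count was 2 on leaving out Double-positive litter 1 or RFP-only litter 1. Sums over this list ran from 79633 to 135067 in Double-positive, 62973 to 77556 in RFP-only and 19934 to 22688 in GFP-only libraries.

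Markers of several other cell types also differed. Over all tested genes, 8.29% passed in Double-positive against GFP-only, 20.3% in RFP-only against GFP-only and 2.85% in Double-positive against RFP-only cells. Of 14 tested Schwann cell and neuron genes, a list that includes Foxd3, 3 rose and 4 fell in Double-positive and 5 rose and 3 fell in RFP-only cells, each against GFP-only cells. The Double-positive count of 7 became 4 on leaving out Double-positive litter 1 and 3 on leaving out Double-positive litter 2. Skeletal muscle genes rose for 12 of 14 in RFP-only against GFP-only cells, whereas they were lower for 8 of 14 in Double-positive against RFP-only cells, with sums of 1322 to 3889 in Double-positive, 9834 to 36918 in RFP-only and 2324 to 4659 in GFP-only libraries. Those 8 became 3 on leaving out Double-positive litter 1 and 2 on leaving out RFP-only litter 2 or 5. Blood and immune genes rose for 11 of 16 in Double-positive and 8 of 16 in RFP-only against GFP-only cells, with sums of 3836 to 24352, 2026 to 6125 and 1394 to 2385 in Double-positive, RFP-only and GFP-only libraries. The 11 became 7 on leaving out Double-positive litter 2 or 5, and the 8 became 5 on leaving out RFP-only litter 1 or 2. In RFP-only against GFP-only cells 7 of 15 endothelial genes rose and 1 fell (Erg, an endothelial factor also made in cartilage), and the 11 pericyte and smooth muscle genes split into 10 that rose and 1 that fell (Cspg4, a proteoglycan of pericytes). The 8 endothelial genes that passed became 3 on leaving out RFP-only litter 1, 4 on leaving out RFP-only litter 2 or 5, and 5 on leaving out GFP-only litter 1. Epidermal and epithelial genes rose for 1 and fell for 2 of 12 in RFP-only against GFP-only cells, near the share of all genes. Erythroid genes rose for 1 of 9 there, below that share. Of the 9, 2 passed on leaving out GFP-only litter 5 or all of litter 5, and 4 with litter as a block. No marker of the muscle, blood, endothelial, pericyte or Schwann lists was at 0 reads in any population, and their part in the forkhead differences was not tested.

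Litter 5 stood apart in several of these values. Its Double-positive library had the highest of the 3 Double-positive values for Foxa1, Foxa2, Foxa3, Foxc1, Foxf1 and Foxf2. The same library had the highest early cartilage sum of that population (1259070, against 546700 in litter 1 and 480914 in litter 2) and its highest blood and immune sum (24352, against 3836 and 9618). Its GFP-only library had the lowest GFP-only values for Foxc1, Foxc2, Foxp1, Foxp2 and Foxp4, and the highest for Foxa2, Foxa3 and Foxf1. Normalized counts of that library summed to 49583900, against 37743900 in litter 1 and 39669200 in litter 2 of GFP-only cells. Relative to these totals its values of Foxa2, Foxa3 and Foxf1 were not the highest, so those ranks depend on the scaling. Whether these features of litter 5 go together was not tested.

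Several members lie in clusters. On chromosome 8, Foxf1, Foxc2 and Foxl1 follow each other with gaps of 28.0 and 9.04 kb, and on chromosome 13 Foxq1, Foxf2 and Foxc1 with gaps of 64.8 and 175 kb. Foxc1 and Foxc2 passed in 2 comparisons each, while Foxf1, Foxf2 and Foxq1 passed in none, and whether their differences are unlike those of Foxc1 and Foxc2 was not tested. The 95% interval of Foxf1 in RFP-only against GFP-only cells, -3.31 to 1.33 on the log2 scale, includes a large fall. Foxq1 had 77.8, 7.02 and 126 normalized counts in Double-positive, 61.7, 57.8 and 82.6 in RFP-only, and 243, 97.9 and 346 in GFP-only libraries. Foxl1, too low to be tested, averaged 4.12 ± 4.78 normalized counts in Double-positive, 2.96 ± 3.05 in RFP-only and 12.3 ± 4.83 in GFP-only cells. Gmds, an enzyme of GDP-fucose synthesis that lies 7.10 kb from Foxc1, averaged 2352 ± 320, 879.7 ± 39.8 and 2753 ± 419 in Double-positive, RFP-only and GFP-only cells. Like Foxc1, Gmds fell in RFP-only against GFP-only cells (log2 fold change -1.64 ± 0.21, limma adjusted p = 0.000328) and was higher in Double-positive than RFP-only cells (1.41 ± 0.21, adjusted p = 0.00398).

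Gm20696 shares 300 exon bases with Foxp1 on the same strand, and reads there cannot be assigned to either with certainty. It averaged 58.2 ± 22.1 normalized counts in Double-positive, 26.8 ± 21.4 in RFP-only and 17.1 ± 21.3 in GFP-only cells. Mthfsd, a gene between Foxf1 and Foxc2, averaged 1345 ± 208, 1251 ± 33.3 and 2181 ± 456 in Double-positive, RFP-only and GFP-only cells and fell in RFP-only against GFP-only cells (-0.78 ± 0.22, limma adjusted p = 0.0290). Foxc2 beside it fell by 4.20 on the same scale.

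For each member that passed in at least 1 comparison, the genes of most similar pattern were those with the smallest root mean square difference in centred log2(normalized count + 1) over 9 libraries, among 12036 genes with a mean of at least 100. For Foxc1 they were Sox9 (0.422), whose reporter defined the sort, Sorbs2 (0.529) and Wwp2 (0.546), an E3 ligase gene of cartilage. For Foxc2 they were Sorbs2 (0.503), Sox9 (0.531) and Papss2 (0.609), which makes the sulfate donor for cartilage proteoglycans.

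For Foxa3 they were Serpina3n (0.920), Chad (0.994) and Matn1 (1.13), the last 2 encoding cartilage matrix proteins, and for Foxa2 they were Scin (0.905), an actin-severing protein, Plb1 (0.990) and Slc13a5 (1.02), a citrate transporter. For Foxp1 they were Lrba (0.203), Rcan1 (0.222), a calcineurin regulator, and Mkx (0.278), a tendon transcription factor. Mkx averaged 1906 ± 369.8 normalized counts in Double-positive, 1286 ± 270.4 in RFP-only and 538 ± 172 in GFP-only cells. These values describe likeness over libraries that fall into 3 populations and carry no test. The root mean square difference can grow with a gene's range over the libraries, which was smaller for Foxp1 than for Foxa2 and Foxa3. Its size is therefore not compared between members.

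**Figure D4:**
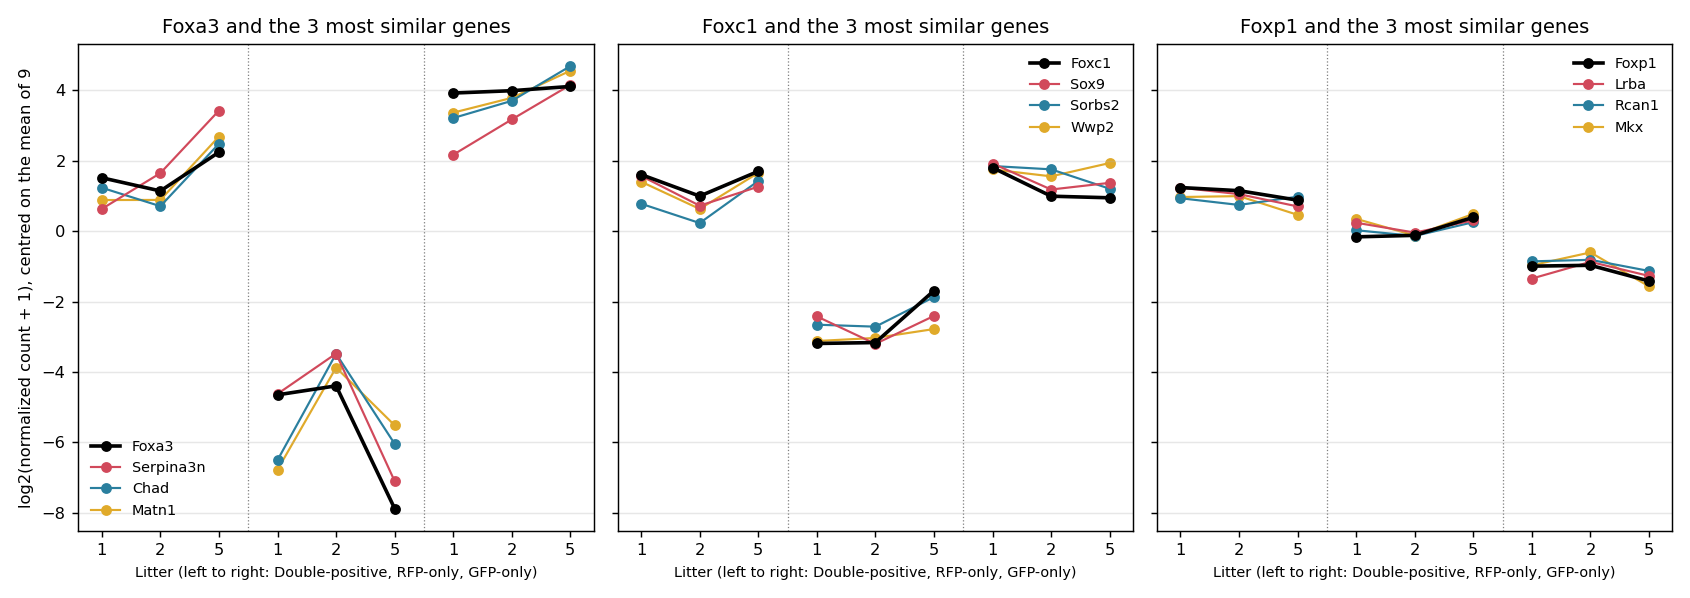
Log2(normalized count + 1), centred on the mean of 9 libraries (y axis), for Foxa3, Foxc1 and Foxp1 and the 3 genes of most similar pattern each, with libraries on the x axis by population and litter. Foxc1 runs with Sox9, low in the RFP-only libraries alone, while Foxp1 steps down across Double-positive, RFP-only and GFP-only libraries with Lrba, Rcan1 and Mkx.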

How the data were processed

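Polyadenylated RNA of sorted knee cells was sequenced in bulk from Nextera XT libraries, per the labels. Tools named without versions in the submitters' processing notes are FastQC, STAR, Salmon and DESeq2, with build mm10; gene models, strand setting and treatment of shared reads are not given in those sources. The values the authors deposited are a signal, their normalized counts, and 100% of values were whole multiples of 1 read to within 0.001. Dividing by that step gave recovered reads. Of 54532 identifiers 54495 matched GENCODE M21 (GRCm38) and 37 did not.

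Two-sided tests used limma 3.58.1 (R 4.3.3) on log2(normalized count + 1) with a trended prior variance, all 9 libraries, genes with a mean of at least 10 and Benjamini-Hochberg adjustment over 17764 genes. The alternatives were other scalings, pseudocounts, filters, a litter block, a pair of populations at a time, single libraries left out, and edgeR 4.0.16 and DESeq2 1.42.0 on recovered reads. The fit was checked on simulated counts that had a single dispersion for all genes and no litter effect. That check does not cover genes that vary more between libraries. The fit without litter 5 was chosen after seeing the data, and the members and gene lists were chosen with earlier results of these data known. Named beside the members are up to 3 passing genes of a list by smallest adjusted p, neighbours within 20 kb, and the 3 genes of most similar pattern.

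The labels give the numbers as litters, so they pair the libraries. Deviations from population means correlated with a median of 0.103 over 9 pairs of the same litter (-0.0353 to 0.149) and -0.0409 over 18 pairs of different litters (-0.146 to 0.0915). Chi-square per degree of freedom was at least 46.6 between replicates, more than sampling noise gives. The helix stretches of the other 4 members are not reported here.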

Additional observations from a re-analysis of the deposited data

How the results depend on the processing

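Of 597 alternative values for the 10 members in 3 comparisons under 20 settings, 549 kept direction and side of the threshold, 12 lost and 24 gained a call, and 12 turned sign. None of those that turned sign had passed; Foxa1 in RFP-only against GFP-only cells (-2.55 to 0.26 with single libraries left out) turned to 0.26 without the litter 5 RFP-only library, 0.14 without the litter 1 GFP-only library, and 0.84 without litter 5. Foxa1 in Double-positive against RFP-only cells (-2.35 to 0.40) turned to 0.96 with edgeR and 0.96 with DESeq2, 0.40 without Double-positive litter 1 or 2 (0.40 each) and 0.34 without the litter 2 RFP-only library. Foxp2 in RFP-only against GFP-only cells (-1.19 to 0.13) turned to 0.13 without the litter 1 GFP-only library. Foxp4 (-0.14 to 0.80) turned to -0.14 (without the litter 5 GFP-only library) and -0.12 (without litter 5), and Foxc1 to -0.10 (without litter 5), in Double-positive against GFP-only cells. The causes were not tested. A filter at a mean of 50 removed Foxa1. No scaling moved the median of all genes by over 0.1.

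The members that passed were 1 to 3 with single libraries left out in Double-positive against GFP-only cells (4 without litter 5), 5 to 7 in RFP-only against GFP-only and 3 to 6 in Double-positive against RFP-only cells. With litter as a block, which pairs the libraries, 2, 5 and 3 members passed; the block ended the call of Foxp1 in Double-positive against RFP-only cells and no other member's. Over all genes, 1472, 3601 and 506 passed in these comparisons. For Double-positive against GFP-only this became 697 with only those populations, 2780 with DESeq2 and 637 to 1582 with single libraries left out; for RFP-only against GFP-only, 2202 to 3723 with single libraries left out; and for Double-positive against RFP-only, 1008 with only those populations, 1152 with DESeq2, 293 without litter 5 and 216 to 1070 with single libraries left out. EdgeR called 1236, 3191 and 411. Foxa1, at 0 to 59 reads a library, had 95% intervals of -5.52 to 2.65, -5.00 to 3.17 and -4.60 to 3.57 on the log2 scale in these comparisons, so that large differences either way are within its error.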
